A study of Mus musculus with 12 samples.

Results

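The GIMAP genes encode a family of guanine nucleotide-binding proteins of immune cells, and the 8 members Gimap1, Gimap3, Gimap4, Gimap5, Gimap6, Gimap7, Gimap8 and Gimap9 were described here in NK (natural killer) cells of mice, innate lymphocytes able to kill other cells and to release cytokines. They were found by gene symbol, as 8 of 55487 features in the expression table, and all 8 passed the filter on low values (log2 CPM above 0 in at least 4 libraries), as did 12364 genes in all. CPM is a gene's read count scaled to a common library total. Bulk RNA-seq was available for 12 libraries in 3 groups of 4, all of IL-15 primed cells. The cells of 1 group were left unstimulated. The others were stimulated with an antibody to the receptor NK1.1 for 6 hours. They were sorted as negative (YFP-) or positive (YFP+) for a yellow fluorescent protein reporter of interferon gamma. All mice were of strain B6.129S4-Ifngtm3.1Lky/J, which carries that reporter at the Ifng gene, with the genotype given as mut/mut, so the unstimulated controls carry it too. The titles also carry the letters HD beside IL-15, which the labels do not explain, and no age is given. Each group has libraries named f2, m2, m3 and m4. The labels do not say that a repeated name is 1 mouse, nor that the 4 libraries of a group are separate cultures, so p-values measure only the spread between these libraries.

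GIMAP proteins (GTPases of the immunity-associated protein family) share a GTP-binding AIG1 domain, and several are anchored in intracellular membranes by a tail at the carboxyl end. They are known mainly from lymphocytes, in which their transcripts are abundant in resting cells, and loss of Gimap5 in mice and rats leaves few naive T cells and impairs NK cells. The question put to the data here is how each member's level differs between unstimulated NK cells, stimulated cells without reporter signal and stimulated cells with it. Cells of all groups were primed.

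The members lie side by side on chromosome 6, which makes them neighbours as well as relatives. In GENCODE M21 on GRCm38 the cluster spans chr6:48647234-48770851, a length of 123.6 kb, in the order Gimap8, Gimap9, Gimap4, Gimap6, Gimap7, Gimap1, Gimap5 and Gimap3. Gimap6 and Gimap3 are on the minus strand and the other 6 on the plus strand. A predicted readthrough gene, Gm28053, runs across Gimap7, Gimap1 and Gimap5 on the plus strand, and Gimap1os is annotated on the minus strand over Gimap1. The cDNA kit named in the labels does not keep the strand, so reads of Gimap1 and Gimap1os cannot be told apart where they overlap. Of the 50-base stretches in each member's annotated transcripts, 35.5% of those of Gimap1 also occur in transcripts of another gene on either strand, mostly Gimap1os. That share was 8.15% for Gimap3 and 6.84% for Gimap5, with 190 stretches common to these closely related neighbours, 1.39% for Gimap7 and 0.170% for Gimap6. It was 0 for Gimap4, Gimap8 and Gimap9. Levels of Gimap1, Gimap3 and Gimap5 therefore carry an uncertainty from reads that more than 1 gene could have produced.

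The promoters of 3 members are shown because these members differed most in direction: Gimap7 had the largest decrease of the family, Gimap5 was the member that rose, and Gimap3 is the neighbour with most transcript sequence in common with Gimap5. Each is the 250 bases before the RefSeq start site on GRCm38.p6, read 5′ to 3′ on the gene's own strand. Capitals mark matches to 9 short motifs searched on both strands: FOXO as TGTTTAC, RUNX as TGTGGT and ETS as CAGGAAG. AP-1 was searched as TGANTCA, NFAT as GGAAAA and the T-box motif as GGTGTGA. NF-kB was searched as GGGNNTTCC, KLF as GGGTGNGG and the TATA box as TATAAA. Matches could overlap one another.
Gimap7, chr6:48718371-48718620, plus strand: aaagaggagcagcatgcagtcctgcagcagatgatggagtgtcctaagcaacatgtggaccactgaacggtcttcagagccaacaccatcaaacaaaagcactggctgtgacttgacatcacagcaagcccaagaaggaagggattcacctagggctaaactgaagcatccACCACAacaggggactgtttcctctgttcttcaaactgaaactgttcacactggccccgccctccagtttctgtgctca
Gimap5, chr6:48745947-48746196, plus strand: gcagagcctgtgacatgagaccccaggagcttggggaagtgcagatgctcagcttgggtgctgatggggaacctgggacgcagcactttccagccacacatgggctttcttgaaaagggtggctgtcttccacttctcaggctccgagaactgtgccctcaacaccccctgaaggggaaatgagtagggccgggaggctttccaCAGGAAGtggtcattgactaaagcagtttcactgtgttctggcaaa
Gimap3, chr6:48770852-48771101, minus strand: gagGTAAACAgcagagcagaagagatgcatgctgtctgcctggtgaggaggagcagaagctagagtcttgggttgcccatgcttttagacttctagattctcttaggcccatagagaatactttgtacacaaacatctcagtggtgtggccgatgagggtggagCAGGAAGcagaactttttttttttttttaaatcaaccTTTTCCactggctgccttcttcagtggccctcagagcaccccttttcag
The Gimap7 window held a RUNX match 79 to 74 bases before the start, and its last bases lie in the first exon of Gm28053. The Gimap5 window held an ETS match 46 to 40 bases before the start. The Gimap3 window held a FOXO match 247 to 241 bases before the start, an ETS match at 86 to 80 and an NFAT match at 49 to 44. Over all 8 members the RUNX letters occurred in Gimap1, Gimap4 and Gimap7, the ETS letters in Gimap3, Gimap5 and Gimap9, and the NFAT letters in Gimap1, Gimap3 and Gimap6. FOXO letters were in the Gimap3 window alone of the 8, T-box letters in that of Gimap8 and TATA letters in that of Gimap6. Among 26987 promoters of the same length, 14.2% held the RUNX letters, 10.5% the ETS, 20.6% the NFAT, 3.09% the FOXO, 3.31% the T-box and 13.0% the TATA letters. AP-1, NF-kB and KLF letters, held by 6.87%, 4.88% and 14.7% of promoters, were in 0 of the 8 windows. A match is a run of letters and not a measured binding site.

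Library totals were 32.1 to 54.2 M reads. The reporter's own gene Ifng was at 3.66 to 4.19 CPM without stimulation, at 36.6 to 54.5 in YFP- and at 303.8 to 343.4 in YFP+ libraries, which is the order the labels give. All 10 NK markers passed the filter, and their sum was 14467 to 17289 CPM without stimulation, 10962 to 14177 among YFP- and 10661 to 15785 among YFP+ libraries. Single markers moved with the groups, in both directions. Klrb1c, the NK1.1 gene, was at 290.2 to 327.2 CPM without stimulation, 57.6 to 86.6 among YFP- and 3.70 to 8.97 among YFP+ libraries. Eomes was at 101.5 to 114.8, 57.5 to 84.3 and 38.3 to 43.0 in that order. Tbx21 was instead at 29.0 to 38.5, 66.8 to 93.3 and 62.8 to 115.5 CPM, and Klrk1 at 183.3 to 195.1, 236.4 to 321.7 and 209.5 to 274.0. Prf1 was at 1696 to 2976, 2847 to 4474 and 2289 to 5986 CPM. B cell, myeloid and endothelial marker lists held 1 gene each above the filter: Cd79b, Cd14 and Pecam1. In unstimulated, YFP- and YFP+ libraries Cd79b was at 1.05 to 3.33, 0.599 to 2.32 and 0.0552 to 1.25 CPM. Cd14 was at 0.617 to 1.92, 0.285 to 1.20 and 0.225 to 0.424 CPM in that order. Pecam1 was at 25.5 to 29.5, 32.3 to 61.8 and 28.9 to 41.8 CPM, whereas the endothelial markers Vwf and Cdh5 had at most 4 reads in any library. Of 10 T cell markers, 5 passed, and the list's sum was 125.5 to 174.8 CPM without stimulation, 182.4 to 286.3 among YFP- and 242.9 to 385.3 among YFP+ libraries. Cd28 alone gave 61.3 to 78.8, 75.1 to 181 and 142 to 260.3 CPM in the same order. Trac was at 6.83 to 8.47, 27.6 to 41.9 and 40.4 to 54.5 CPM and Cd6 at 0.301 to 0.973, 6.80 to 18.7 and 8.20 to 36.1, whereas Cd3g was at 30.9 to 79.4, 24.4 to 41.7 and 11.7 to 31.9 and Cd3d at 14.2 to 25.9, 12.8 to 20.6 and 7.25 to 13.8. Cd3e reached at most 1.49, Cd4 0.184 and Cd8a 0.193 CPM. The T cell sums were higher, and several NK markers lower and others higher, in the groups in which most GIMAP members were lower. The part of these markers in the results was not tested. The share of reads on ribosomal RNA, Lars2 and Mir6236 was 25.5 to 32.9% in unstimulated libraries, 15.0 to 28.8% in YFP- and 12.9 to 27.8% in YFP+, with replicate m3 highest in both sorted groups. Across all tested genes the median log2 difference of YFP+ minus YFP- was -0.19 as deposited and 0.07 after centring each library on its median. The share of higher calls in that comparison was 15.1% as deposited and 50.2% with centring, and it was 44.9% and 37.9% when quantiles were equalised or a trimmed mean set the scale, so small differences of members are also given relative to the median. For YFP- minus unstimulated it was 59.1% as deposited and 48.0% with ribosomal RNA, Lars2 and Mir6236 left out of the totals, an alternative chosen after the data were seen, which moved the median from 0.14 to -0.04.

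As a family, the GIMAP genes gave 1917 to 2211 CPM in unstimulated libraries, 1467 to 1873 in YFP- libraries and 759.6 to 1314 in YFP+ libraries. The ranges of the groups do not overlap. The shares of the members differed too. Gimap4 gave 33.8 ± 3.86% of the family's summed CPM (SD, n = 4) in unstimulated and 24.1 ± 5.21% in YFP+ libraries, Gimap7 went from 11.7 ± 2.18% to 1.23 ± 0.109%, and Gimap5 went from 4.73 ± 0.663% to 20.8 ± 3.45%.

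**Figure D1:**
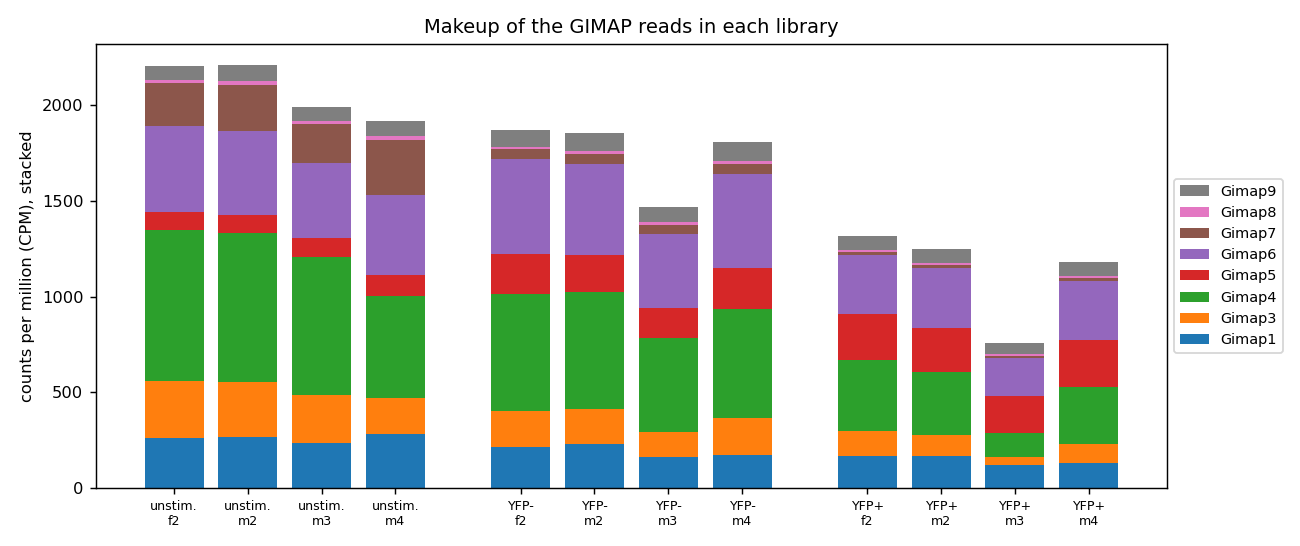
Stacked CPM (y axis) of the 8 GIMAP members in each of the 12 libraries (x axis, by group and replicate; "unstim." is unstimulated). The bars are lower in YFP+ than in unstimulated libraries, with the Gimap7 band nearly gone and the Gimap5 band wider.

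Per kilobase of annotated exon, Gimap4 was the most abundant member in each group on average, at 385 ± 63.7 CPM per kb in unstimulated, 311 ± 31.9 in YFP- and 153 ± 58.9 in YFP+ libraries (SD, n = 4). Gimap8, whose protein carries several GTP-binding domains, was the least abundant, at 4.59 ± 0.645, 3.97 ± 0.163 and 3.36 ± 0.311 CPM per kb. In unstimulated cells the order was Gimap4, Gimap6, Gimap7, Gimap3, Gimap1, Gimap9, Gimap5 and Gimap8. The neighbours Gimap6, Gimap7, Gimap3 and Gimap1 had overlapping ranges in that order. In YFP- cells Gimap7 was in place 7 and Gimap5 in place 6, and neighbouring ranges overlapped from Gimap3 through Gimap1 and Gimap9 to Gimap5. In YFP+ cells Gimap5 stood in place 3, at 55.0 ± 5.40 CPM per kb, and Gimap7 in place 7 at 5.96 ± 1.47. There the ranges of neighbours overlapped from Gimap4 down to Gimap3, though Gimap4 exceeded Gimap6, and Gimap6 exceeded Gimap5, within each of the 4 libraries. Exon lengths pool all annotated transcripts, so levels compared between members are approximate.

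Between the unstimulated and YFP+ groups, which lie farthest apart, 7 of the 8 members differed with an adjusted p under 0.05 in limma, 6 lower and 1 higher in YFP+. Over all genes tested 60.8% were called in this comparison, 33.3% lower and 27.5% higher. The median difference of the members was -0.74 in log2, beside -0.03 for all genes tested. For YFP- minus unstimulated 3 of 8 members were called, 2 lower and 1 higher, where 51.1% of all genes were called, 20.9% lower and 30.2% higher. The members' median was -0.25 and that of all genes 0.14. For YFP+ minus YFP- 5 of 8 were called, all 5 lower, where 21.8% of all genes were called, 18.5% lower and 3.28% higher. The members' median was -0.58 and that of all genes -0.19. That count ran from 3 to 6 when single libraries were left out. It was 3 without any 1 of YFP- f2, m2 or m4, and 3 with only the 8 libraries compared. The 3 comparisons share their groups, so they are not independent. In bulk RNA, fewer cells of a type and less RNA per cell cannot be told apart.

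**Figure D2:**
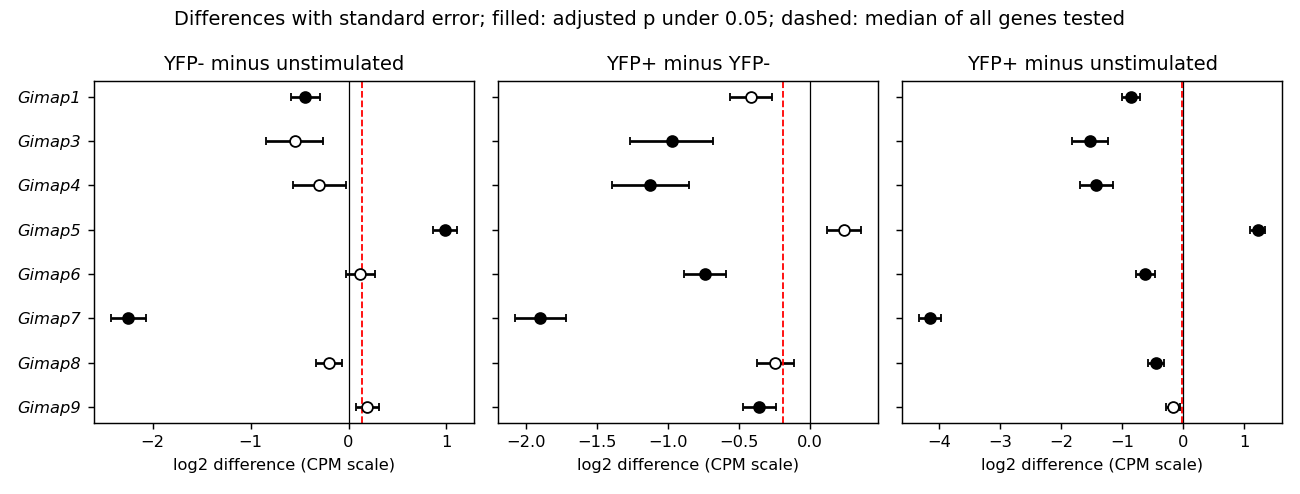
Log2 difference (x axis, CPM scale) of each member (y axis) in the 3 comparisons, with the standard error as a bar; filled points have a limma adjusted p under 0.05 and the dashed red line is the median of all genes tested. Gimap7 lies farthest to the left in each panel, at -2.25, -1.90 and -4.15, and Gimap5 alone is filled on the right in the outer panels.

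Gimap7, a member whose protein is known to stimulate GTP hydrolysis by pairing with other GIMAP proteins, was the member called lower at both steps in the fit without a block, in which Gimap1, Gimap3, Gimap4 and Gimap8 also had values below 0 at both. In unstimulated libraries f2, m2, m3 and m4 it was at 229, 243, 206 and 285 CPM. In the YFP- libraries in that order it was at 48.1, 51.8, 47.0 and 54.9 CPM, and in the YFP+ libraries at 16.3, 13.9, 9.01 and 16.2 CPM. All 4 YFP- values lie below all unstimulated values, and all 4 YFP+ values lie below those. YFP- was 4.75-fold lower than unstimulated (log2 difference -2.25, SE 0.18, limma adjusted p = 5.6e-07). YFP+ was a further 3.73-fold lower than YFP- (-1.90, SE 0.18, limma adjusted p = 1.5e-05), which makes 17.7-fold from unstimulated to YFP+ (-4.15, SE 0.18, limma adjusted p = 1.3e-09). By size of decrease it stood at place 139, 279 and 96 from the bottom of the 12364 genes in these comparisons. It was covered by 326 to 9257 reads per library, and its direction and call held under the 25 alternatives run for each comparison, within -2.54 to -2.16, -2.01 to -1.64 and -4.32 to -3.95.

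Gimap5, a lysosomal membrane protein required for the survival of naive T cells, went the opposite way and was the member that rose. Its unstimulated values for f2, m2, m3 and m4 were 93.0, 91.7, 100.6 and 105.6 CPM. They were 208, 192, 160 and 216 CPM in YFP- and 241.5, 231.4, 195.6 and 244.2 CPM in YFP+ libraries. The unstimulated values lie below all 8 stimulated ones, while the YFP- and YFP+ values overlap. Gimap5 rose 1.98-fold from unstimulated to YFP- (log2 difference 0.98, SE 0.12, limma adjusted p = 2.1e-05) and 2.33-fold to YFP+ (1.22, SE 0.12, limma adjusted p = 1.3e-06). Between YFP+ and YFP- the difference was 0.24 (SE 0.12, limma adjusted p = 0.18), with YFP+ above YFP- in each of the 4 pairs of equal label. Relative to the median of all genes it was 0.43, and it passed with centring (0.50, limma adjusted p = 0.0064) and with trimmed-mean scaling (0.39, limma adjusted p = 0.026). Adjusted p over the 25 alternatives of this comparison ran from 0.0064 to 0.48.

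Gimap3 and Gimap4 were lower in the reporter-positive cells than in both other groups and followed each other closely. Whether their steps differed in size was not tested. Gimap3 is known from intracellular membranes and, like Gimap5, has been linked to BCL2-family proteins, and Gimap4 has been linked to apoptosis of T cells. Gimap4 was at 789, 780.5, 719 and 537.5 CPM in unstimulated libraries f2, m2, m3 and m4, at 613, 612, 488 and 570.0 CPM in YFP-, and at 373, 330, 126 and 297 CPM in YFP+. The YFP+ values all lie below the YFP- ones, and YFP- overlaps unstimulated. Gimap4 fell 2.18-fold from YFP- to YFP+ (log2 difference -1.13, SE 0.27, limma adjusted p = 0.0090) and was 2.68-fold lower in YFP+ than in unstimulated cells (-1.42, SE 0.27, limma adjusted p = 0.00043). For YFP- minus unstimulated the value was -0.30 (limma adjusted p = 0.38).

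Gimap3 was at 297, 288, 252 and 186 CPM in the unstimulated libraries in the same order. It was at 186, 183, 134 and 192 CPM in YFP- and at 128, 110, 40.9 and 101 CPM in YFP+ libraries. The YFP+ and YFP- values do not overlap, and YFP- overlaps unstimulated through the low unstimulated m4. Gimap3 was 1.97-fold lower in YFP+ than in YFP- (log2 difference -0.98, SE 0.29, limma adjusted p = 0.030) and 2.88-fold lower than in unstimulated cells (-1.53, SE 0.29, limma adjusted p = 0.00048). YFP- minus unstimulated gave -0.55 (limma adjusted p = 0.13), which passed with centring (-0.69, limma adjusted p = 0.030) and with quantile normalization (-0.82, limma adjusted p = 0.0055). The call between YFP+ and YFP- was lost under 8 of 25 alternatives, among them the 8 libraries alone (limma adjusted p = 0.064), trimmed-mean scaling (-0.82, limma adjusted p = 0.060) and leaving out YFP- f2, m2 or m4 (limma adjusted p = 0.079, 0.074 and 0.072), and over all 25 the adjusted p ran from 0.0092 to 0.23.

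The YFP+ library m3 stood below the others of its group for both genes. Its log2 CPM was 1.46 below the mean of the other 3 YFP+ libraries for Gimap3 and 1.40 below for Gimap4, beside 0.13 below for the median of all genes tested. Gimap7 was 0.78 below, Gimap6 0.66, Gimap1 0.36, Gimap9 0.30 and Gimap5 0.29, and Gimap8 was 0.22 above. This library had the highest share of reads on ribosomal RNA, Lars2 and Mir6236 in its group, 27.8% beside 12.9 to 21.3%, and the part of that share in its values was not tested. Without it, YFP+ minus YFP- was -0.61 for Gimap3 (limma adjusted p = 0.026) and -0.78 for Gimap4 (limma adjusted p = 0.0022). With those features left out of the totals, the values were -0.99 and -1.14.

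**Figure D3:**
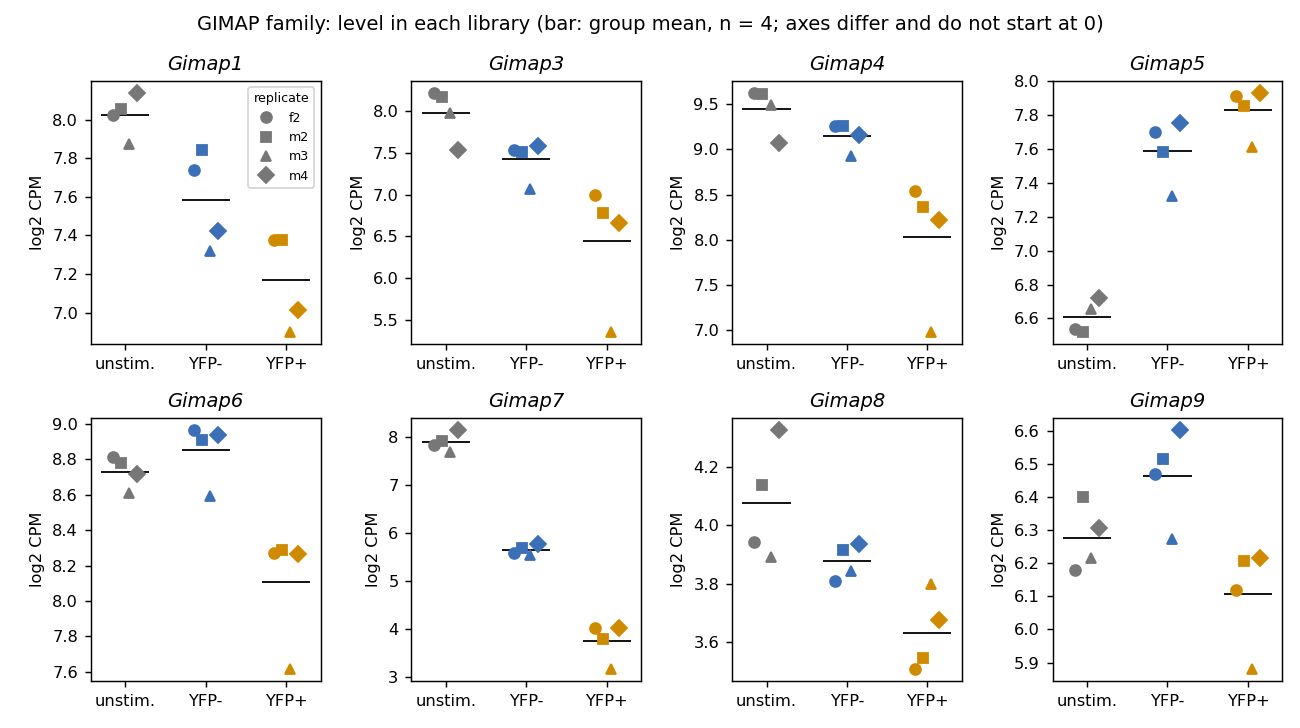
Log2 CPM (y axis; the axes differ and do not start at 0) of each member in the 4 libraries of each group (x axis), with the group mean as a bar and the replicate label as the symbol. Gimap7 steps down from group to group and Gimap5 is lowest in unstimulated libraries; the YFP+ triangle (m3) is far below the other YFP+ points for Gimap3, Gimap4 and Gimap6.

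Gimap6, whose protein binds the ATG8-family protein GABARAPL2 and takes part in autophagy, was lower in YFP+ than in either other group. Its values in f2, m2, m3 and m4 were 450.1, 439, 390 and 422 CPM in unstimulated, 501, 480.2, 386 and 490.5 CPM in YFP-, and 308, 312, 196 and 308 CPM in YFP+ libraries. The YFP+ values lie below all others, and those of the other groups overlap. The log2 difference was -0.74 against YFP- (SE 0.15, limma adjusted p = 0.0032), a 1.67-fold fall, and -0.62 against unstimulated (SE 0.15, limma adjusted p = 0.0026). Both kept their call under the 25 alternatives of each comparison. YFP- minus unstimulated was 0.12 (limma adjusted p = 0.52), or -0.01 relative to the median of all genes.

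Gimap1, an endoplasmic reticulum protein needed for mature T and B cells, was lower in both stimulated groups than in unstimulated cells. It was at 260.5, 266, 234.5 and 282 CPM in unstimulated libraries f2, m2, m3 and m4, at 214, 229, 160.0 and 172 CPM in YFP-, and at 166, 166, 119 and 129 CPM in YFP+. The unstimulated values lie above all 8 others, and YFP- overlaps YFP+. The log2 differences were -0.44 for YFP- minus unstimulated (SE 0.15, limma adjusted p = 0.023) and -0.86 for YFP+ minus unstimulated (SE 0.15, limma adjusted p = 0.00020). The former was lost without any 1 of the unstimulated m2 or m4 or the YFP- m3 or m4 libraries (limma adjusted p = 0.052, 0.063, 0.069 and 0.068), and over the 25 alternatives its adjusted p ran from 0.00010 to 0.16. YFP+ minus YFP- was -0.41 (limma adjusted p = 0.061), with values of -0.46 to -0.36 in the 4 pairs of equal label. The overlapping Gimap1os, at 7.35 to 17.4 CPM over all libraries, gave -0.43, -0.12 and -0.55 for YFP+ minus YFP-, YFP- minus unstimulated and YFP+ minus unstimulated, of which the last passed (limma adjusted p = 0.017).

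Gimap8 and Gimap9 had small differences throughout. Gimap8 was at 15.4, 17.6, 14.8 and 20.1 CPM in unstimulated libraries f2, m2, m3 and m4, at 14.0, 15.1, 14.3 and 15.3 CPM in YFP-, and at 11.4, 11.7, 13.9 and 12.8 CPM in YFP+. The YFP+ values lie just below all others. It fell by 0.44 in log2 from unstimulated to YFP+ (SE 0.13, limma adjusted p = 0.010), a call lost with centring, quantile normalization and trimmed-mean scaling and without label m2 or m4 (limma adjusted p = 0.11, 0.097, 0.055, 0.084 and 0.066, within 0.0035 to 0.11 over 25 alternatives). YFP+ minus YFP- was -0.24 (limma adjusted p = 0.21), or -0.06 relative to the median of all genes, and YFP- minus unstimulated was -0.20 (limma adjusted p = 0.22).

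Gimap9 was at 72.4, 84.3, 74.3 and 79.2 CPM in unstimulated libraries f2, m2, m3 and m4, at 88.5, 91.3, 77.3 and 97.2 CPM in YFP-, and at 69.5, 73.8, 58.9 and 74.4 CPM in YFP+. YFP+ and YFP- do not overlap, and the unstimulated values overlap both. YFP+ minus YFP- was -0.36 (SE 0.12, limma adjusted p = 0.043), or -0.17 relative to the median of all genes. That call was lost under 16 of 25 alternatives, with an adjusted p of 0.0090 to 0.54, among them centring (-0.10, limma adjusted p = 0.54) and leaving out YFP+ m3 (-0.28, limma adjusted p = 0.10) or any 1 of YFP+ f2, YFP+ m4, YFP- f2, YFP- m2 and YFP- m4 (limma adjusted p = 0.055, 0.057, 0.092, 0.10 and 0.11). The other differences of Gimap9 were 0.19 for YFP- minus unstimulated (limma adjusted p = 0.19) and -0.17 for YFP+ minus unstimulated (limma adjusted p = 0.23).

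Differences between members within the same library do not depend on the library total, and show that the changes were unequal. Gimap5 minus Gimap7 in log2 CPM was -1.29 ± 0.18 (SD, n = 4) in unstimulated, 1.94 ± 0.14 in YFP- and 4.07 ± 0.25 in YFP+ libraries. Thus Gimap5 was below Gimap7 in 4 of 4 unstimulated libraries and above it in 8 of 8 stimulated ones. Gimap5 minus its close relative Gimap3 was -1.37 ± 0.40, 0.17 ± 0.08 and 1.38 ± 0.60 in the same order, again with no overlap between groups. For Gimap5 minus Gimap1 the values were -1.42 ± 0.14, 0.01 ± 0.24 and 0.66 ± 0.20. Gimap3 minus Gimap4 moved little, at -1.47 ± 0.06, -1.73 ± 0.12 and -1.57 ± 0.03, and was -1.62 in the YFP+ library m3. These pairs were chosen with the members' differences known and are given as a description.

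**Figure D4:**
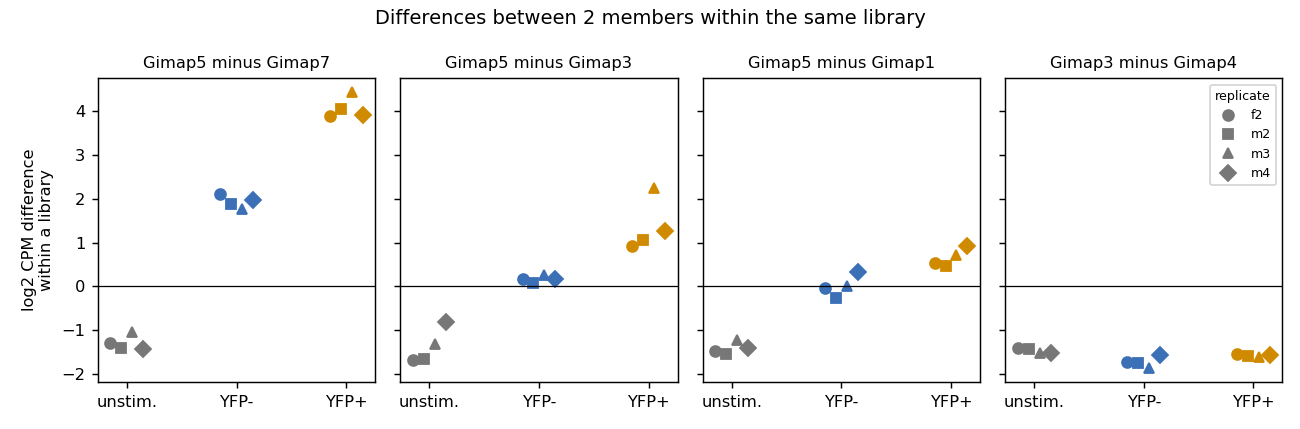
Difference in log2 CPM between 2 members within the same library (y axis) for 4 pairs of members, by group (x axis) and replicate label (symbol). Gimap5 minus Gimap7 climbs from a mean of -1.29 to 4.07 across the groups, while Gimap3 minus Gimap4 stays between -1.87 and -1.41.

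Across the 12 libraries, which differ in depth and sort, Pearson correlations of log2 CPM between members ran from 0.37 to 0.99 over the 21 pairs without Gimap5 and from -0.90 to -0.0043 over the 7 pairs with it. The closest pair was Gimap3 and Gimap4 at 0.99, and the most opposed was Gimap5 and Gimap7 at -0.90. After each library was taken relative to its group mean, Gimap3 and Gimap4 were still at 0.99, and Gimap5 was positive with 6 of the 7 others, up to 0.74 with Gimap9. Gimap8 was the exception there, at -0.05 with Gimap5, and it stood at -0.62 with Gimap3 and -0.65 with Gimap4. Correlations with group means removed lean on the YFP+ library m3, most of all for Gimap3 and Gimap4. It was 1.46 and 1.40 in log2 CPM below the mean of the other YFP+ libraries for these genes, and 0.22 above for Gimap8. The correlations were not recomputed without it. The mean profile of the 8 members was compared with 8089 other named genes. Among the 5 most alike over 12 libraries were D16Ertd472e (r = 0.99), Klf6 (0.98), Gnb4 (0.98) and Il10rb (0.98). Klf6, a zinc finger transcription factor, was at 279 ± 12.1 CPM without stimulation, at 210.5 ± 30.8 in YFP- and at 119.7 ± 21.6 in YFP+ libraries (SD, n = 4), and Il10rb, a receptor subunit for interleukin 10 and related cytokines, at 45.7 ± 3.81, 25.1 ± 2.81 and 12.9 ± 3.60 CPM. With group means removed the 5 most alike were Slc35b2 (0.99), Arf4 (0.98), Tbrg1 (0.98), Herpud1 (0.97) and Taf1a (0.97). This measure leaves out differences between groups, in which these genes did not all follow the family. For YFP+ minus unstimulated Herpud1, Taf1a and Arf4 were at 2.51, 2.08 and 1.20 in log2, Tbrg1 at -0.04 and Slc35b2 at -0.35. Taking the highest of so many correlations makes such correlations high, and they are given as a description.

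The genes around the cluster were examined because neighbours can change together. Within 250 kb of either end 17 protein-coding genes are annotated, of which 7 passed the filter. For YFP+ minus YFP- 6 of the 7 were called, all lower, where 18.5% of all genes were called lower. For YFP+ minus unstimulated 5 were called, all lower, beside 33.3% of all genes, and for YFP- minus unstimulated 2 were lower and 1 higher, beside 20.9% and 30.2%. Krba1 and Zfp467 passed the filter through their unstimulated libraries, at 0.16 and 0.06 log2 CPM or more there, with all YFP+ libraries below 0. Genes that pass in this way are favoured to be lower in the other groups, so these counts are given as a description. The nearest tested neighbours beyond Gimap3 are Tmem176b and Tmem176a, a pair of membrane protein genes. Tmem176b was at 17.8 to 27.2 CPM without stimulation, at 9.22 to 15.2 in YFP- and at 1.34 to 2.08 in YFP+ libraries, with no overlap. Its log2 differences were -1.03 for YFP- minus unstimulated (SE 0.22, limma adjusted p = 0.0014), -2.67 for YFP+ minus YFP- (SE 0.22, limma adjusted p = 5.1e-06) and -3.70 for YFP+ minus unstimulated (SE 0.22, limma adjusted p = 1.3e-08). Tmem176a, which shares 81 exon bases with it on the other strand, gave -0.76, -2.28 and -3.03.

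On the side of Gimap8, Zfp775 and Krba1 fell from YFP- to YFP+ by 1.64 and 1.74 in log2 (limma adjusted p = 0.017 and 0.031). Krba1 had few reads, 44 to 50 per unstimulated, 9 to 55 per YFP- and 3 to 15 per YFP+ library. Repin1, which encodes a zinc finger protein, rose by 1.24 from unstimulated to YFP- (limma adjusted p = 0.0011) and fell by 1.04 from YFP- to YFP+ (limma adjusted p = 0.0089). Zfp467 had 41 to 67 reads per unstimulated library, 6 to 50 per YFP- library and 0 to 3 per YFP+ library, and was lower in YFP+ than in both (limma adjusted p = 3.5e-05 against unstimulated and 0.0035 against YFP-). Lrrc61 was not called in any of the 3 comparisons (limma adjusted p = 0.27 to 0.83). Within the cluster, Gm28053, at 0.138 to 1.44 CPM, gave -1.56 for YFP+ minus YFP- (limma adjusted p = 0.029), -0.63 for YFP- minus unstimulated (limma adjusted p = 0.28) and -2.19 for YFP+ minus unstimulated (limma adjusted p = 0.0011). It had 34 to 55 reads per unstimulated, 27 to 61 per YFP- and 5 to 41 per YFP+ library, and its YFP- and YFP+ values overlap. Like Krba1 and Zfp467, Gm28053 passed the filter through its unstimulated libraries, with all YFP+ libraries below 0 log2 CPM. Lower values in YFP+ were therefore favoured, and its differences are given as a description.

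**Figure D5:**
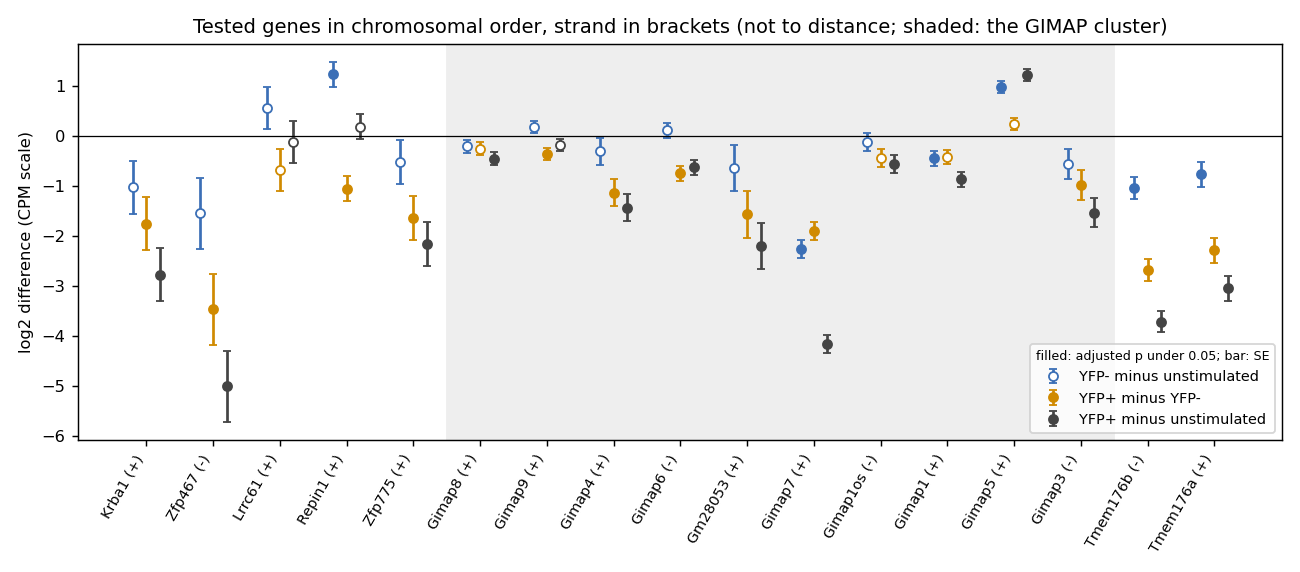
Log2 differences (y axis, CPM scale, with SE) of the tested genes in chromosomal order (x axis, strand in brackets, not drawn to distance) for the 3 comparisons; filled points have a limma adjusted p under 0.05 and the shaded band is the GIMAP cluster. Gimap5 at 1.22 for YFP+ minus unstimulated lies between members that are below 0, and Tmem176b and Tmem176a to the right lie at -3.70 and -3.03.

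The other 4 gene lists set the family beside its partners, genes of lymphocyte quiescence and other GTP-binding families; they were chosen with results of these data known. Partners described for GIMAP proteins, 13 BCL2-family, ATG8-family and related genes, were all tested. For YFP- minus unstimulated 6 were higher and 3 lower, beside 30.2% and 20.9% of all genes tested. For YFP+ minus unstimulated 5 were higher and 6 lower, beside 27.5% and 33.3% of all genes. Gabarapl1, an ATG8-family gene, rose from 36.6 to 39.9 CPM in unstimulated libraries to 118 to 156 in YFP- (log2 difference 1.87, limma adjusted p = 3.9e-07). Bcl2l1, which encodes the survival protein BCL-XL, rose by 2.73 in YFP- (limma adjusted p = 2.5e-05) and was 3.99-fold above unstimulated in YFP+ (limma adjusted p = 0.00018). Bad and Bak1, which promote cell death, were lower in YFP+ than in unstimulated cells 2.38-fold and 2.14-fold (limma adjusted p = 1.8e-06 and 0.00017). For YFP+ minus YFP- 5 partners were lower and 0 higher, beside 18.5% and 3.28% of all genes. Their median was -0.29 and that of all genes -0.19. Bcl2l11, the death-promoting BIM gene, fell by 1.05 (limma adjusted p = 0.00013) and Bcl2 by 0.87 (limma adjusted p = 0.027). Bcl2l11 had risen by 1.92 from unstimulated to YFP- (limma adjusted p = 1.9e-07) and was still 1.83-fold above unstimulated in YFP+ (limma adjusted p = 7.4e-05). The count for YFP+ minus YFP- was 2 without replicate label f2, 3 without YFP- f2 or YFP+ m4, and 3 with centring, quantile normalization or trimmed-mean scaling.

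Of 20 genes of lymphocyte quiescence and recirculation 19 were tested. For YFP+ minus YFP- 15 were lower and 0 higher, beside 18.5% and 3.28% of all genes, with a median of -0.88 beside -0.19. For YFP+ minus unstimulated 15 were lower and 1 higher, beside 33.3% and 27.5%, with a median of -1.96 beside -0.03. For YFP- minus unstimulated 6 were higher and 7 lower, beside 30.2% and 20.9%, with a median of -0.18 beside 0.14. Foxp1, Ccr7, Btg1, Bach2, Btg2 and Tcf7 rose. Tcf7, a transcription factor gene of naive and memory-like lymphocytes, was at 11.8 to 21.8 CPM without stimulation, at 22.2 to 38.8 in YFP- and at 3.45 to 4.59 in YFP+ libraries. Il7r, the interleukin 7 receptor gene, had 30 to 80 reads per unstimulated library and 47 to 76 per YFP- library, and in YFP+ libraries it had 6 reads in m3 and 0 in the other 3. It passed the filter through the groups other than YFP+, so lower calls in YFP+, which the counts above include, were favoured for it. Pik3ip1, an inhibitor of PI3 kinase, resembled Gimap7 in falling at both steps, 4.17-fold and 4.01-fold (limma adjusted p = 5.1e-05 and 0.00026). Klf2, Klf3, Foxo3, Lef1 and Zfp36l2 of the same list were also called lower at both steps. Foxp1 was the gene of this list called higher in YFP+ than in unstimulated cells (1.56, limma adjusted p = 2.4e-05), while 4 of the 19 had values above 0 there.

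For comparison with other GTP-binding families, 16 of 21 interferon-inducible GTPases were tested. Of these, 16 of 16 were lower in YFP+ than in YFP-, beside 18.5% of all genes, with a median of -1.90 beside -0.19. Tgtp1 and Tgtp2, near-identical genes whose reads may be split between them, gave -3.75 and -3.32 (limma adjusted p = 4.4e-05 and 8.0e-05). Tgtp1 had few reads, 104 to 178 per YFP- and 4 to 26 per YFP+ library. In YFP- minus unstimulated 2 of these GTPases were higher, 2 lower and 12 not called, beside 30.2% higher and 20.9% lower of all genes. For YFP+ minus unstimulated 16 were lower, beside 33.3% of all genes, with a median of -2.17 beside -0.03. At least Tgtp1, Irgm2 and Mx1 were below 0 log2 CPM in all YFP+ libraries and passed the filter through other groups. Genes that pass in this way are favoured to be lower in YFP+, so the counts of lower GTPases in YFP+ are given as a description. Septins, relatives of the GIMAP fold that form filaments, had 7 of 13 genes tested. Septin1 was lower in YFP+ than in YFP- (-0.47, limma adjusted p = 0.029), the only septin called there, where 21.8% of all genes were called. The count of septins called ran from 0 to 2 over the alternatives. For YFP+ minus unstimulated 4 septins were lower and 2 higher, beside 33.3% and 27.5% of all genes, with a median of -1.02 beside -0.03. Septin10 and Septin4 were lower (-2.98 and -2.76, limma adjusted p = 0.0037 and 4.7e-06), as were Septin6 and Septin1, and Septin11 and Septin7 were higher (0.97 and 0.77, limma adjusted p = 3.5e-06 and 0.0012). Septin10 passed the filter through other groups, with all YFP+ libraries below 0 log2 CPM, so a lower value there was favoured. The size of its fall leans on YFP+ m4, which had 1 read and was at -4.53 log2 CPM, beside -0.45 to -0.34 in the other YFP+ libraries. Between YFP- and unstimulated cells 2 were higher in YFP- and 2 lower, beside 30.2% and 20.9% of all genes.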

How the data were processed

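RNA of 12 NK cell samples was sequenced as paired 150-base reads after SMARTer cDNA synthesis from 10 ng of total RNA, per the labels' protocols. The submitters' processing notes name bcl2fastq, STAR 2.7.9a, Subread, featureCounts 2.0.3 and GRCm38, with no roles. The authors deposited moderated log2 CPM values per gene, and whole reads were recovered from 100% of the deposited log2 values within 0.01 reads. Of 55774 lines, 287 repeated an identifier and were left out. The table had 0 per-sample columns of no sample.

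The deposited log2 CPM values were fitted with limma 3.58.1 (R 4.3.3): 1 coefficient per group, all 12 libraries, and a moderated spread with a mean trend. P-values were Benjamini-Hochberg adjusted over 12364 genes with log2 CPM above 0 in at least 4 libraries. A difference was called at an adjusted p under 0.05, and a standard error (SE) is that of limma's fit. The script was tested on simulated data. Tables and figures were made with python 3.11.15, numpy 2.4.6, pandas 2.3.3 and matplotlib 3.10.9. A count of 3 reads corresponds to 0.0553 to 0.0933 CPM, for counting error only.

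Members and lists were chosen with earlier results of these data known. Named were all 8 members, up to 4 called genes per list and comparison (those of the largest differences), all tested flanking genes, and the 5 genes most like the members' mean profile by each measure, of which 1 is not reported here. Gene positions are from GENCODE M21 and promoters from RefSeq, of which all 8 members had one. Alternatives changed the filter, scaling, weights, replicate block and libraries used.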

Additional observations from a re-analysis of the deposited data

Results flagged for a closer look

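A library standing apart was looked for in 153 sets of 4 values, each a gene in a group: a set was listed when the gap between an extreme library and its nearest neighbour, divided by the range, passed Dixon's 95% critical value for 4 samples. Chance would give about 1 in 20 of independent sets chosen without regard to their values, or 7.65 here. In all 13 were found, 3 of them among the 24 sets of GIMAP members. The sets share libraries and include genes named for their differences or likeness in these same data. The 13 can therefore not be weighed against 7.65.

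Among the members, the ratio was 0.868 for Gimap3 in YFP-, where m3 was at 7.06 log2 CPM and the others at 7.51 to 7.58. Gimap6 gave 0.839 in YFP-, with m3 at 8.59 and the others at 8.91 to 8.97, and 0.971 in YFP+, with m3 at 7.62 and the others at 8.27 to 8.29.

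Replicate m3 was also the low library for D16Ertd472e in YFP+ (0.905), Slc35b2 in YFP- (0.839) and in YFP+ (0.866), and Tbrg1 in unstimulated cells (0.966). These genes were named for their likeness to the members. Il7r in YFP+ gave 1, since m3 had 6 reads and the others 0. Replicate m4 stood below the others for Bcl2l1 (0.841) and Septin11 (0.856) in unstimulated cells and for Septin10 in YFP+ (0.973), and above them for Krba1 in unstimulated cells (0.860). For Herpud1 in unstimulated cells (0.845) f2 was above the others.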

How the results depend on the processing

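The 24 differences of members were recomputed under 25 alternatives each, giving 600 values. Direction and side of the threshold were kept by 541, 36 lost the call, 17 gained one and 6 changed sign, and 12 of the 24 differences kept both under all 25. The 5 members called for YFP+ minus YFP- became 3 with only the 8 libraries compared and 2 with no filter, where more genes were tested. Leaving out libraries gave 3 to 6. Over all genes that comparison had 2691 calls, and 1583 with no filter. Signs changed for Gimap8 in YFP+ minus YFP- (0.017 centred on the median, 0.014 with quantile normalization), Gimap6 in YFP- minus unstimulated (-0.017 centred, -0.058 with quantile normalization, -0.042 with ribosomal RNA, Lars2 and Mir6236 left out of the totals) and Gimap9 in YFP- minus unstimulated (-0.046 with quantile normalization). None of these 3 differences was called as deposited, and the cause was not tested. With a replicate block on the labels, 6, 3 and 7 members were called for YFP+ minus YFP-, YFP- minus unstimulated and YFP+ minus unstimulated, Gimap1 being added to the first (-0.41, limma adjusted p = 0.019). The labels were not used as pairs because their meaning is not given. Libraries of equal label had correlated deviations of -0.06 to 0.38 across the comparisons, and were not all above 0.1 in any comparison. For YFP+ minus YFP- m2, m3 and m4 correlated best with their own label (0.35, 0.37 and 0.17) and f2 did not (0.05), a hint from the data and not from the design. Whether an equal label marks 1 mouse is not given in the labels. Counts of the other lists gave 375 values, of which 37 moved by over 1.5 times.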
